A study of Mus musculus with 70 samples.

Results

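Interferon-stimulated antiviral genes were examined across all groups of a study of muscle stromal cells in mice. The 38 genes came from a named list and were looked up by symbol in the gene count table: Isg15, Usp18, Herc6, Trim25, Ifit1, Ifit2, Ifit3, Ifit3b, Oas1a, Oas1g, Oas2, Oas3, Oasl1, Oasl2, Mx1, Mx2, Ddx58, Ifih1, Dhx58, Ifitm3, Bst2, Rsad2, Rtp4, Parp9, Parp12, Parp14, Dtx3l, Cmpk2, Zbp1, Eif2ak2, Samd9l, Trim21, Xaf1, Ifi44, Ifi35, Ifi208, Sp100 and Lgals3bp. All 38 were found among the 55011 symbols of the table. STATs, IRFs, chemokines and the interferon-inducible GTPases of the Gbp and Irg families were left out, while the GTPase genes Mx1 and Mx2 were in the list.

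The series holds 70 RNA-seq libraries in 28 groups and 6 experiments. Sorted libraries came from 1000 cells after 2 rounds of flow sorting, and whole-muscle libraries from 2 ng of RNA. MmSCs, the mesenchymal stromal cells of hindlimb muscle, were the main population. In the cytokine experiment, uninjured C57BL/6J mice received Oncostatin M (Osm), Il-1b, Il-17A and TNFa together (the mix) by intraperitoneal injection, and MmSCs were sorted after 2 h (2 libraries), 4 h (1 library) or 8 h (2 libraries). The same experiment tested Il-1b, TNFa, Osm or Il-17A alone and Osm paired with Il-1b, TNFa or Il-17A, all at 2 h, against PBS (2 libraries each). The labels give no dose and no time after the PBS injection, and the injected cytokines could act on cells other than MmSCs. In the injury experiment, CD31+ cells, CD45+ cells, MmSCs and MuSCs (muscle satellite cells) of C57BL/6J mice were taken without injury or 1 day after cardiotoxin (3 libraries each). In the reporter experiment, MmSCs of Il6RD mice, which carry an Il-6 reporter and depleter system that tags cells with Thy1.1, were sorted as Thy1.1+ or Thy1.1- cells 12 h after cardiotoxin (3 each). In the antibody experiment, whole tibialis anterior muscle of C57BL/6J mice was taken 7 days after cardiotoxin with injections of anti-Cxcl5 or IgG (3 each). DMDmdx mice, which lack dystrophin, gave MmSCs at 2.5, 7 and 12.5 weeks of age (3, 3 and 2 libraries), with no healthy mice beside them. Il1b-KO mice (3 libraries) and Il1b-WT littermates (2 libraries) gave MmSCs 1 day after cardiotoxin. The labels do not say whether libraries of a group came from separate mice, so p-values measure only the spread between these libraries.

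Library totals ran from 2252373 to 8408842 counts. Marker genes went with the sort labels: Pdgfra, a marker of mesenchymal stromal cells, stood at 537 to 751 CPM (counts scaled to library size) in the MmSC libraries of the injury experiment and at 0 to 6.41 CPM in the CD31+ and CD45+ libraries. It also reached 49.8 and 26 CPM in 2 of the 3 injured MuSC libraries. A list of 8 MmSC markers, which includes collagen genes, separated the populations less sharply than Pdgfra. Its sum was 57841 to 79846 CPM in resting and 18677 to 23574 CPM in injured MmSC libraries. In CD31+ libraries the sum was 3381 to 4603 CPM, in MuSC libraries 754 to 2293 CPM and in CD45+ libraries 33.1 to 243 CPM. Pecam1 (CD31) was at 1898 to 2260.0 CPM in CD31+ libraries, Ptprc (CD45) at 438 to 886 CPM in CD45+ libraries, and Pax7, which marks satellite cells, at 206 to 650 CPM in MuSC libraries. In the 21 cytokine libraries the summed level of 10 leukocyte markers was at most 6 CPM. Macrophage markers summed to 1.09 to 3.56 CPM under PBS, 4.63 to 11.5 CPM under Osm and 5.31 to 13.6 CPM at 2 h after the mix. Endothelial markers summed to 217 to 267 CPM under PBS, 105 to 110 CPM under Osm and 127 to 146 CPM at 2 h after the mix. At 8 h after the mix the endothelial sum was 54.3 to 59.5 CPM. The part of these markers in the cytokine results was not tested. In bulk libraries, fewer cells of a type and less RNA per cell cannot be told apart.

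Interferon-stimulated genes are the main effectors of antiviral defence within a cell. Type I and type III interferons act through receptors coupled to JAK1 and TYK2, which phosphorylate transcription factors such as STAT2. With IRF9, STAT2 binds the interferon-stimulated response element (ISRE) in promoters as part of a complex. Interferon gamma acts mainly through the gamma-activated site (GAS), and members of the IL-6 cytokine family such as Osm signal through JAKs to STAT3. The products of these genes bind viral RNA (IFIT proteins), make the oligoadenylates that activate RNase L (OAS enzymes), sense RNA (Ddx58, which encodes RIG-I, Ifih1, which encodes MDA5, and Dhx58), attach or remove the ubiquitin-like protein ISG15, or block viral entry and budding at membranes (Ifitm3, Bst2).

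Many of these genes lie side by side. In GRCm38.p6, Ifit2, Ifit3, Ifit3b and Ifit1 fill 99.32 kb of chromosome 19 (34550694 to 34650009), and Oas2, Oas3, Oas1g and Oas1a fill 177.2 kb of chromosome 5 (120730333 to 120907521). Oasl2 and Oasl1 lie within 40.98 kb, Mx1 and Mx2 within 113.9 kb, Parp14, Dtx3l and Parp9 within 139.7 kb, and Rsad2 and Cmpk2 within 37.09 kb. Near-identical copies can share reads: of the 50-base words in their transcripts, 51.2% for Ifit3, 45% for Ifit3b, 57.6% for Oas1a, 45.7% for Oas1g and 20.8% for Ifi208 also occur in another gene, so the split between such copies is uncertain. Parp9 and Dtx3l overlap on opposite strands, and the strand setting of the counting is not given in the sources used here. Mx2 is annotated as a polymorphic pseudogene, and C57BL/6 mice are known to carry a defective Mx1, so their values describe transcripts only.

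Promoter sequences (RefSeq, GRCm38.p6) were matched by symbol for 29 of the 38 genes. The ISRE core GAAANNGAAA, searched on both strands from 250 bases before to 50 bases after the start, was present in 15 of the 29 (51.7%), against 1079 of 27025 symbols with a promoter (3.99%). The GAS core TTCNNNGAA was present in 6 of 29 (20.7%), against 9.55% of all symbols. A match describes letters and no binding was measured here. The 5 promoters below, each 250 bases before the start, belong to genes on which the cytokine results turn: Isg15 and Ifit1 rose strongly under Osm, Ifi208 had no count under PBS, Bst2 stayed high at 8 h, and Ifit2 fell under Il-1b. Capitals mark the ISRE core, the GAS core, or both where they overlap.
Isg15 (chr4:156200819-156201068, minus strand): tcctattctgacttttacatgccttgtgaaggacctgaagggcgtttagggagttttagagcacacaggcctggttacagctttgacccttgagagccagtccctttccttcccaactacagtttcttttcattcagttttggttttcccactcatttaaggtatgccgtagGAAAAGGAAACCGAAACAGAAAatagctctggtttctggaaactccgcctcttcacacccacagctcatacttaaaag
Ifit1 (chr19:34640639-34640888, plus strand): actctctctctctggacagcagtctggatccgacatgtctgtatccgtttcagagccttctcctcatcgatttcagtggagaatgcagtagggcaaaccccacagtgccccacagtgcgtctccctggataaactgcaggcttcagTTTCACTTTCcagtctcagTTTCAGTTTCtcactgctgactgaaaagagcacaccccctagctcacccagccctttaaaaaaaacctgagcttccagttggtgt
Ifi208 (chr1:173673415-173673664, plus strand): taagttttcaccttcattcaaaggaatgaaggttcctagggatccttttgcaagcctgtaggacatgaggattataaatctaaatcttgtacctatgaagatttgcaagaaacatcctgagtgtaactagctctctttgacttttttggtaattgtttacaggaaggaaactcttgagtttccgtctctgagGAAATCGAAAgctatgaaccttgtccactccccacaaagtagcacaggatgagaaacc
Bst2 (chr8:71537473-71537722, minus strand): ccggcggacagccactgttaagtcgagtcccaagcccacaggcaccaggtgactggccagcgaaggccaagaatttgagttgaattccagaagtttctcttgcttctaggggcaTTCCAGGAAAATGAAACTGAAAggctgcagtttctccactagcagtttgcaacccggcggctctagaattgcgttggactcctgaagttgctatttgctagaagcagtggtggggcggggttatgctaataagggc
Ifit2 (chr19:34550444-34550693, plus strand): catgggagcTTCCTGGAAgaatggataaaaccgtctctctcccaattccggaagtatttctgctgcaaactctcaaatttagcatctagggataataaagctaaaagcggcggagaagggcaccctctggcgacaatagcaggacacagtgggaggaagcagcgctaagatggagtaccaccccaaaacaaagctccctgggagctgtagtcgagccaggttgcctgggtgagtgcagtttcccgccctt
In Isg15, 3 overlapping ISRE cores began 78, 72 and 66 bases before the start, and in Ifit1 2 cores lay on the reverse strand, 104 and 85 bases before it. In Bst2, 2 ISRE cores (130 and 124 bases before the start) overlapped a GAS core (136 bases before it). The Ifit2 window held a GAS core, 241 bases before the start, and no ISRE core.

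At 2 h after the cytokine mix, the whole group of genes was higher in MmSCs than after PBS. All 38 passed the test upward (edgeR's quasi-likelihood test, Benjamini-Hochberg adjusted p under 0.05 over the 15965 genes tested), where 20.5% of all genes did. Their median log2 difference was 3.50, against -0.06 over all genes (a log2 difference of 1 is a doubling). The summed level of the 38 genes was 1292 ± 10.7 CPM (SD, n = 2) under PBS and 8743 ± 879 CPM (SD, n = 2) under the mix.

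Among the IFIT family, whose products bind viral RNA ends or assist that binding, Ifit1 was at 21.6 and 16.5 CPM under PBS and at 934 and 714 CPM under the mix. Its log2 difference was 5.43 ± 0.27 (SE, edgeR adjusted p = 2.16e-12). Ifit2 showed the smallest difference of the 38 genes: 28.2 and 39.4 CPM under PBS against 85.4 and 84.7 CPM, a log2 difference of 1.33 ± 0.20. Isg15, the ubiquitin-like modifier itself, went from 3.31 and 3.82 CPM to 142 and 117 CPM (log2 difference 5.18 ± 0.28). Rsad2, which encodes the nucleotide-modifying enzyme viperin, went from 0.763 and 1.5 CPM to 119 and 57.2 CPM, a log2 difference of 6.27 ± 0.51. It had the largest difference among genes with PBS counts. Oas3 and Ifi208, a member of the PYHIN family of DNA-binding proteins, had no count in either PBS library. Against a floor of 3 counts per library, Ifi208 was at least 30.0-fold higher under the mix, and Oas3 at least 20.1-fold. At the lower end stood Lgals3bp, which encodes a secreted glycoprotein, with 153 and 133 CPM under PBS and 443 and 302 CPM under the mix (1.38 ± 0.21). Trim21, a cytosolic antibody receptor, had 3.31 and 1.5 CPM under PBS and 6.98 and 7.47 CPM under the mix (1.57 ± 0.45), and its call was lost without PBS replicate 2. The call of Oas1g was lost without mix 2 h replicate 1.

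**Figure D1:**
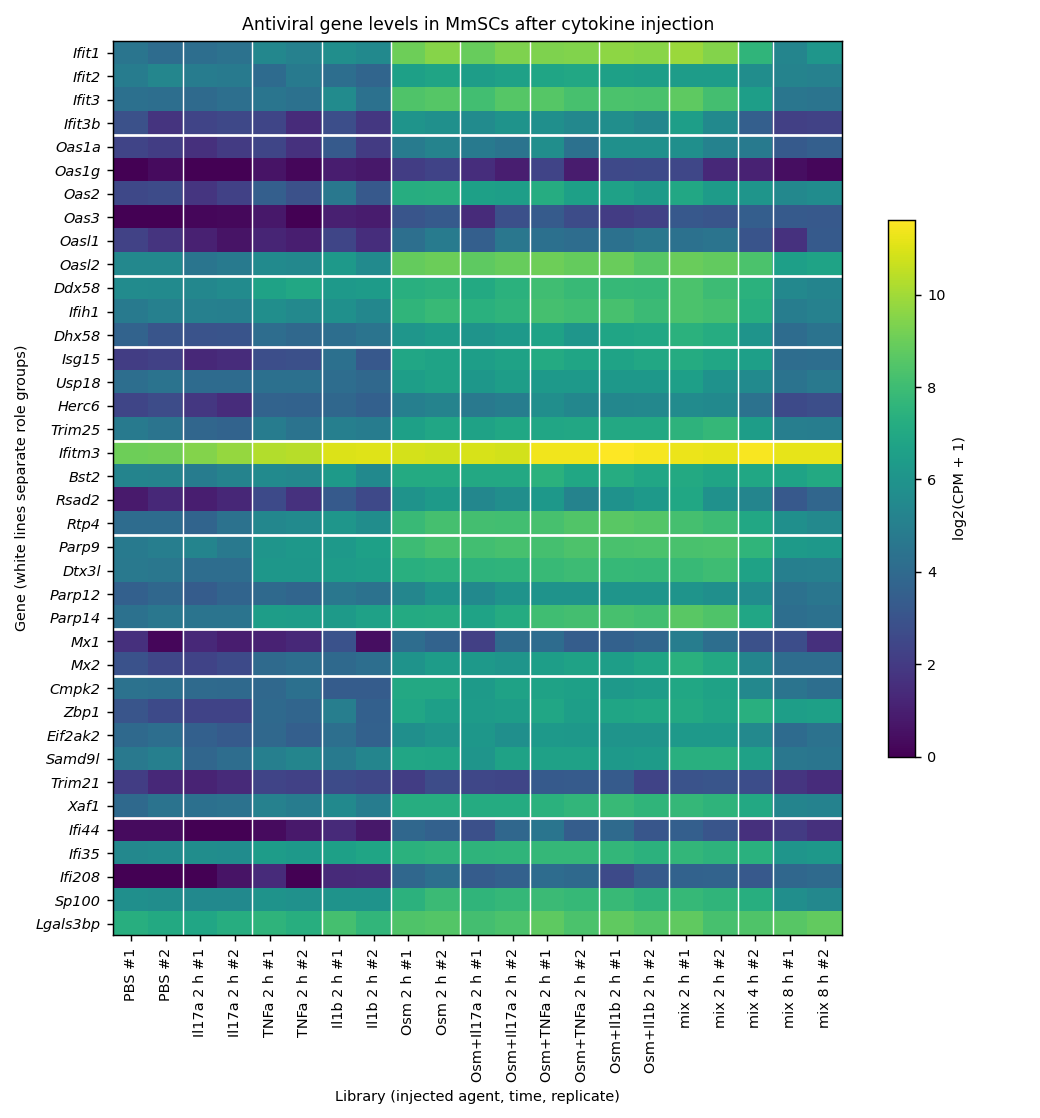
Levels of the 38 genes (rows, white lines between roles) in each of the 21 MmSC libraries of the cytokine experiment (columns, by injected agent, time and replicate), coloured by log2(CPM + 1). The columns with Osm and with the mix at 2 h are brighter than PBS over nearly all rows, from 3.31 to 117 CPM for Isg15 in the first libraries of PBS and Osm.

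Osm alone raised nearly all of the genes. Of the 38 genes, 37 rose after Osm, where 18.9% of all genes did, with a median log2 difference of 2.89 (-0.05 over all genes), and none of these 37 calls was lost in any alternative run. The exception was Trim21, at 3.3 and 5.48 CPM (log2 difference 0.86 ± 0.46, edgeR adjusted p = 0.16). Isg15 stood at 117 and 106 CPM and Ifit1 at 532 and 732 CPM, against the PBS values above. Rsad2 was at 62.5 and 79.6 CPM (log2 difference 5.96 ± 0.51), and Ifi44, a cytoplasmic protein of little-known function, at 13.9 and 11.4 CPM against 0.254 and 0.273 CPM (5.49 ± 0.70). Relative to PBS, Ifi208 was at least 39.9-fold higher and Oas3 at least 20.3-fold. The smallest called differences were those of Lgals3bp (1.32 ± 0.21), Ifit2 (98.1 and 111 CPM, 1.63 ± 0.20) and Ifitm3, which restricts viral entry (1861 and 1744 CPM against 541 and 557 CPM, 1.72 ± 0.12). The summed level of satellite cell markers was 289 to 323 CPM under PBS, 2854 to 3155 CPM under Osm, 4136 to 4505 CPM under Il-1b, 1177 to 1197 CPM under TNFa and 3688 to 3864 CPM at 2 h after the mix. Sdc4 gave most of each sum, and Vcam1 added 582 and 626 CPM under Il-1b. Pax7 and Myf5 were at 0 in these libraries except for Pax7 in 1 PBS and 1 TNFa library (0.13 and 0.14 CPM). The part of these markers in the differences was not tested.

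Il-1b alone gave a smaller and less uniform pattern. After Il-1b, 24 of the 38 genes rose (19.5% of all genes) and 2 fell (13.7% of all genes), with a median log2 difference of 1.04. All 4 members of the PARP group rose, which includes Parp14, a mono-ADP-ribosyltransferase (81 and 101 CPM against 19.1 and 23.5 CPM, 2.10 ± 0.17), and Dtx3l, the ubiquitin ligase partner of Parp9 (81.7 and 87.1 CPM against 24.7 and 23.5 CPM, 1.81 ± 0.13). Ifitm3 rose to 2096 and 2138 CPM (1.95 ± 0.12), above its level under Osm in both libraries. Isg15 stood at 18.6 and 8.14 CPM (1.90 ± 0.30), so the Il-1b libraries differed from each other and both lay above PBS. Rsad2 was at 8.84 and 4.92 CPM (2.59 ± 0.61). The helicase genes Ddx58 (0.73 ± 0.16) and Ifih1 (0.73 ± 0.17) and the Oas-like Oasl2 (0.54 ± 0.19) had the smallest called rises, and those of Ifih1 and Oasl2 were lost without 1 library. Ifit2 fell to 17.1 and 13.1 CPM (log2 difference -1.16 ± 0.22, edgeR adjusted p = 0.00029). Cmpk2, a mitochondrial nucleotide kinase that neighbours Rsad2, fell to 9.37 and 9.32 CPM from 19.7 and 18.7 CPM (-1.04 ± 0.19). For these 2 genes the Il-1b libraries lay below both PBS libraries.

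TNFa alone moved fewer of the genes. It raised 14 of 38 (10.2% of all genes) and lowered 1 (4.62% of all genes), with a median log2 difference of 0.75. Parp14 was at 88.8 and 84.1 CPM (2.02 ± 0.17), Dtx3l at 70.2 and 70.5 CPM (1.55 ± 0.13) and Mx2 at 15.3 and 17.4 CPM against 6.74 and 4.5 CPM (1.53 ± 0.24). The RIG-I gene Ddx58 rose to 102 and 125 CPM from 47.4 and 46.8 CPM (1.27 ± 0.16). None of the 6 OAS family genes was called, and Isg15 stood at 5.95 and 6.23 CPM. Ifit2 fell to 15.6 and 26.5 CPM (-0.69 ± 0.21, edgeR adjusted p = 0.029), a call lost without PBS replicate 2 and without TNFa replicate 1. Of the 15 calls, 6 were lost without 1 library: without TNFa replicate 1, 9 genes rose. Ifi208 was listed with counts in 1 TNFa library only (1.72 and 0 CPM).

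Il-17A alone gave little. Of the 38 genes, 1 rose (2.84% of all genes) and 5 fell (2.11% of all genes), and the median log2 difference was -0.26. Ifitm3 rose to 717 and 874 CPM (0.54 ± 0.12). Trim25, a ubiquitin ligase that acts on RIG-I, fell to 13.2 and 12.1 CPM from 26.6 and 21.1 CPM (-0.91 ± 0.19), and Herc6, the main ISG15 ligase of mice, fell to 2.66 and 1.81 CPM from 4.32 and 5.59 CPM (-1.12 ± 0.30). Oasl2 (-0.80 ± 0.20), Samd9l (-0.92 ± 0.22) and Dtx3l (-0.52 ± 0.14) were the other genes that fell. Each of the 6 calls was lost without at least 1 library, and without PBS replicate 1, PBS replicate 2 or Il-17A replicate 2 no gene of the list rose.

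**Figure D2:**
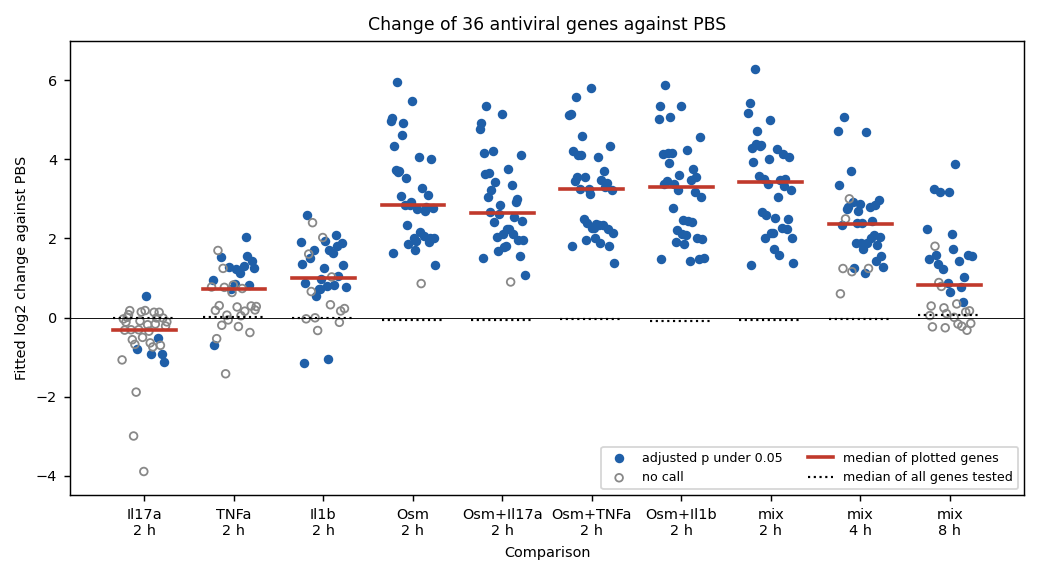
Fitted log2 differences from PBS (y axis) for the 36 genes with PBS counts, 1 point per gene, for each treatment (x axis), filled where the adjusted p is under 0.05. The red line is the median of the plotted genes and the dotted line the median of all genes tested. Over the full list, which has 2 genes not plotted, 1 gene is called upward for Il-17A against 37 for Osm.

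These comparisons share the PBS libraries, so Osm was also set directly against Il-1b at the same time. Of the 38 genes, 33 were higher under Osm (3.95% of all genes) and none lower, with a median log2 difference of 2.13. The differences were largest for Ifit3b (63.5 and 55.3 CPM under Osm, 6.01 and 2.71 CPM under Il-1b, 3.77 ± 0.43), Cmpk2 (128 and 128 CPM against 9.37 and 9.32 CPM, 3.77 ± 0.19) and Ifit1 (3.70 ± 0.25). The smallest called were Parp14 (0.61 ± 0.15, lost without Il-1b replicate 1 or Osm replicate 2), Ifi35 (0.77 ± 0.14) and Ddx58 (1.12 ± 0.16). Mx1, Oas1g, Trim21, Ifitm3 and Lgals3bp did not pass. Ifitm3 differed by -0.23 ± 0.11 (edgeR adjusted p = 0.266), with both Osm libraries below both Il-1b libraries.

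Osm paired with a further cytokine was set against PBS. The pairs with Il-1b and TNFa were also set against Osm alone, and the pair with Il-17A was not. Against PBS, Osm with Il-1b raised 38 of 38 (21.7% of all genes), Osm with TNFa 38 of 38 (20.5%) and Osm with Il-17A 37 of 38 (19.4%), with medians of 3.38, 3.28 and 2.75. With Oas3 and Ifi208 at their lower bounds, the median for Osm with Il-1b was 3.30. Against Osm alone, Osm with Il-1b raised 3 genes (7.21% of all genes) and lowered 1 (5.78% of all genes). The share raised was near that of all genes and the share lowered was below it. The raised genes were Parp14 (300 and 277 CPM against 136 and 141 CPM, 1.06 ± 0.15), Ifitm3 (3162 and 2874 CPM, 0.74 ± 0.12) and Dhx58 (114 and 126 CPM against 67.1 and 83.6 CPM, 0.67 ± 0.21). Cmpk2 fell to 76.6 and 85.9 CPM (-0.65 ± 0.16). Dhx58 was lost without any of the 4 libraries, Cmpk2 without Osm with Il-1b replicate 1, and other settings called up to 6 genes higher and 3 lower. Osm with TNFa raised 4 genes over Osm alone (3.58% of all genes): Parp14 (266 and 286 CPM, 1.00 ± 0.15), Ifitm3 (2620 and 2654 CPM, 0.55 ± 0.11), Ddx58 (268 and 226 CPM, 0.54 ± 0.15) and Dtx3l (226 and 246 CPM, 0.49 ± 0.12). Only Parp14 kept its call in every alternative run for this comparison.

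The interaction term asked whether the pair differed from the sum of the separate log2 differences. For Osm and Il-1b it was below 0 for 15 genes (10.7% of all genes) and above 0 for 1 (5.1% of all genes), with a median of -0.96 (-0.10 over all genes). Dtx3l (-1.45 ± 0.18), Parp9 (-1.43 ± 0.23), Ifitm3 (-1.20 ± 0.16) and Isg15 (-1.84 ± 0.37) were among the 15: each rose under either cytokine, and the pair rose by less than the sum. Ifit2, which fell under Il-1b alone, stood at 95.6 and 92.1 CPM under the pair, and its interaction was 1.01 ± 0.29, lost without PBS replicate 2, Il-1b replicate 2 or Osm replicate 1. For Osm and TNFa the term was below 0 for 6 genes (3.58% of all genes): Parp9 (-1.12 ± 0.23), Dtx3l (-1.06 ± 0.18), Parp14 (-1.03 ± 0.22), Mx2 (-1.14 ± 0.30), Rtp4 (-1.10 ± 0.27) and Ifitm3 (-0.68 ± 0.16). Of these, Parp9 and Dtx3l were called in every alternative run.

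Most of the genes were lower at 8 h after the mix than at 2 h. At 4 h, with 1 library, 32 of 38 genes were higher than under PBS (19.6% of all genes; median 2.39), and the lone library was assumed to vary like the other groups. At 8 h, 21 of 38 were higher (15.6% of all genes; median 0.88). Set against 2 h, 32 of 38 were lower at 8 h (18.7% of all genes), with a median of -2.37 (0.03 over all genes). Parp14 fell from 396 and 348 CPM at 2 h through 115 CPM at 4 h to 17.1 and 19.4 CPM at 8 h, a difference of -4.35 ± 0.18 that put it at the PBS level. Ifit1 fell from 934 and 714 CPM through 195 CPM to 37.9 and 68.4 CPM (-3.96 ± 0.25), and Ifit3b (-4.17 ± 0.42) and Ifit3 (-4.00 ± 0.29) fell alike, the IFIT genes being neighbours whose reads can be shared. Oas2 (124 and 83 CPM, then 41.5 and 48.7 CPM, -1.20 ± 0.29), Ifit2 (-1.28 ± 0.20) and Oasl1 (-1.88 ± 0.48) had smaller differences among those called, and the calls of Oas2 and Oasl1 were each lost without 1 library (mix 2 h replicate 1 and mix 8 h replicate 1).

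Oas3, Ifi208, Ifitm3, Bst2, Zbp1 and Lgals3bp were not called lower at 8 h than at 2 h. Ifitm3 was at 2494 and 2378 CPM at 2 h, 2887 CPM at 4 h and 2370 and 2362 CPM at 8 h, a difference of -0.04 ± 0.11 between 8 h and 2 h. Bst2, which encodes the budding inhibitor tetherin, was at 131 and 110 CPM at 2 h, 121 CPM at 4 h and 105 and 135 CPM at 8 h, against 36.5 and 36 CPM under PBS (-0.01 ± 0.21 between 8 h and 2 h). Zbp1, a sensor of Z-form nucleic acids, was at 135 and 109 CPM, 162 CPM, and 89.4 and 96.1 CPM, against 7.37 and 5.18 CPM under PBS. For Ifitm3 and Zbp1 both 8 h libraries lay below both 2 h libraries. Oas3 was at 8.34 and 7.47 CPM at 2 h and 8.87 and 8.36 CPM at 8 h, and Ifi208 at 11.7 and 12.1 CPM and 13.9 and 15.4 CPM. For these 6 genes the 8 h libraries stayed above both PBS libraries.

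**Figure D3:**
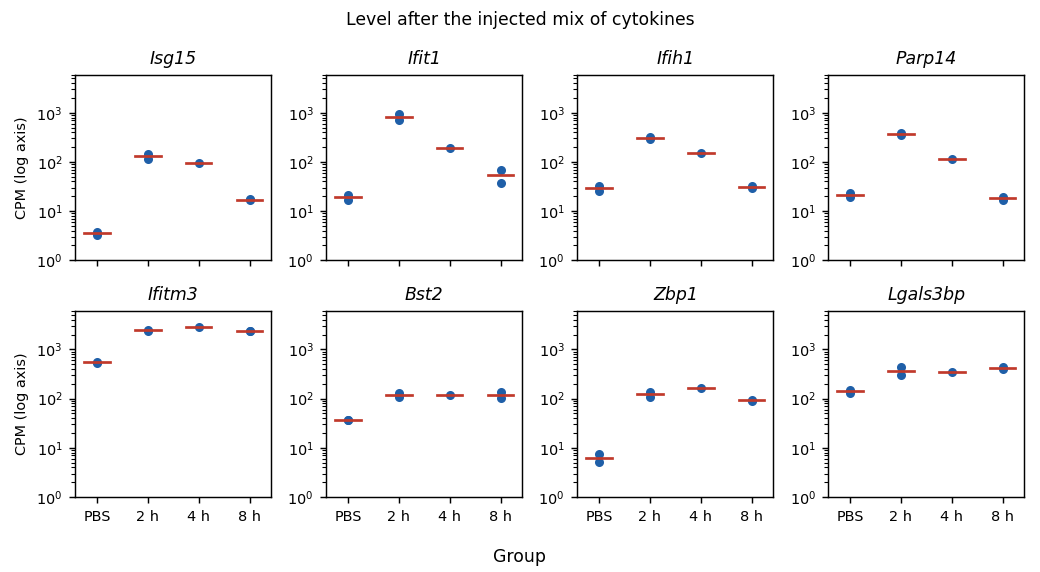
CPM (log axis, the same range in each panel) of 8 genes in MmSCs under PBS and at 2, 4 and 8 h after the cytokine mix, 1 point per library (1 library at 4 h) with a red line at the group mean. Parp14 and Ifih1 are near their PBS level at 8 h, while both 8 h libraries of Ifit1, Ifitm3, Bst2, Zbp1 and Lgals3bp are above both PBS libraries.

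Interferon transcripts themselves were close to undetected. Of 19 interferon ligand genes, the highest count of any gene in any of the 70 libraries was 4, the highest sum over all ligands in a library was 7, and 28 libraries had none. Ifnb1 had 1 count in all libraries together and Ifng 10, and the 21 cytokine libraries held 25 ligand counts in all. The counts of the cytokine libraries refer to MmSC RNA, and other cells of the injected mice were not measured. None of the ligands passed the filter on low counts.

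Genes that carry interferon signals changed in the same libraries. Of 12 JAK, STAT and IRF genes, 9 rose and 2 fell after Osm, and 9 rose and 1 fell after Il-1b and after the mix at 2 h. Stat2 rose by 2.62 on the log2 scale after Osm (282 and 294 CPM against 44.5 and 49.4 CPM), Irf9 by 2.15 (238 and 276 CPM against 51.7 and 63.8 CPM) and Irf7 by 3.66 (206 and 236 CPM against 22.5 and 12.4 CPM). After Il-1b, Irf1, a transcription factor of the IRF family, rose by 2.30. Irf1 differed by 0.49 after Osm (edgeR adjusted p = 0.27). Tyk2 fell by 1.71 after Osm and by 2.24 after the mix at 2 h. Of 5 interferon receptor genes tested, all 5 rose after Il-1b (19.5% of all genes) and after TNFa (10.2% of all genes). With Osm, 1 rose and 1 fell (18.9% and 15.5% of all genes). Ifnar2 rose by 1.64 after Il-1b and by 0.81 after Osm. Socs3, an inhibitor of JAK signalling induced by STAT3, rose by 4.87 after Osm (2957 and 2211 CPM against 121 and 55.6 CPM). Among 12 genes of RNA and DNA sensing, 4 rose and 2 fell after Osm, where 18.9% and 15.5% of all genes did. Sting1, the adaptor of cytosolic DNA sensing, was up by 3.40 and Myd88, the adaptor of Toll-like receptors, by 2.93.

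At 1 day after cardiotoxin, the antiviral genes did not rise as a group in MmSCs. In MmSCs 2 of 38 rose (18.2% of all genes) and 14 fell (23.6% of all genes), and the median log2 difference was -0.62, against -0.22 over all genes. The 14 that fell included Cmpk2 (30.5, 29.9 and 19.2 CPM at rest, 4.27, 7.96 and 4.41 CPM after injury, -2.26 ± 0.29), Usp18, which strips ISG15 and restrains the interferon receptor (61.4, 64.7 and 35.2 CPM, then 14.5, 23.4 and 11.2 CPM, -1.72 ± 0.26), and Trim21 (-1.80 ± 0.58, lost without MmSC day 0 replicate 1 or MmSC day 1 replicates 1 or 3). The smallest called falls, those of Ifi35 (-0.45 ± 0.15), Rtp4 (-0.58 ± 0.22) and Xaf1 (-0.67 ± 0.25), were each lost without 1 library. Ifitm3 rose from 1157, 1105 and 1162 CPM to 1516, 1663 and 1380 CPM (0.41 ± 0.13), and Bst2 from 89.8, 74.9 and 88.6 CPM to 120, 124 and 94.9 CPM (0.42 ± 0.16). In both genes every injured library lay above every resting library, yet Ifitm3 lost its call without MmSC day 1 replicate 2 and Bst2 without MmSC day 1 replicates 1 or 2. Of the 16 calls 11 were lost without 1 library, and without MmSC day 0 replicate 1 only 6 genes fell. With no filter on low counts 9 fell. The summed level of 8 MmSC markers, Pdgfra and collagen genes among them, fell from 57841 to 79846 CPM at rest to 18677 to 23574 CPM after injury. Pdgfra itself varied far less over the same libraries (range given above). The part of these markers in the counts was not tested.

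In CD31+ cells, which are mostly endothelial, 27 of 38 fell and none rose (9.35% of all genes fell), with a median of -0.92 (-0.04 over all genes). All 4 IFIT genes, 3 of the 3 helicase genes and 5 of the 5 remaining genes (Ifi44, Ifi35, Ifi208, Sp100, Lgals3bp) fell. Rsad2 went from 405, 274 and 445 CPM to 65.6, 169 and 102 CPM (-1.74 ± 0.41), and Ifit3b from 61.6, 46.8 and 48.2 CPM to 17, 11.1 and 16.3 CPM (-1.82 ± 0.35). Ifi208 went from 18.6, 30.1 and 28.2 CPM to 4.87, 6.92 and 9.85 CPM (-1.82 ± 0.46). For each of these genes the groups did not overlap. Bst2 (-0.48 ± 0.16), Lgals3bp (-0.47 ± 0.16) and Ifi35 (-0.45 ± 0.15) had the smallest called falls, each lost without 1 library, and Ifitm3 differed by 0.05 ± 0.13 (edgeR adjusted p = 0.842). In 1 injured CD31+ library (replicate 1) 10 leukocyte markers summed to 278 CPM, against 12.9 and 13.6 CPM in the other two and 7.57 to 11.2 CPM at rest, and without it 19 genes fell.

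In CD45+ cells, the leukocytes of muscle, 9 of 38 rose (15.9% of all genes) and 4 fell (18.7% of all genes), and the median was 0.11 (-0.12 over all genes). Ifit1 rose from 30.9, 26.4 and 32.3 CPM to 79.8, 112 and 45.1 CPM (1.40 ± 0.30), and Oas1a from 77.9, 66.3 and 63.7 CPM to 155, 184 and 145 CPM (1.22 ± 0.22). Rtp4 (0.90 ± 0.22) was the next, and Oasl2 (0.62 ± 0.21), Ifi35 (0.60 ± 0.15) and Trim25 (0.54 ± 0.19) had the smallest called rises, with Oasl2 and Trim25 lost without 1 library. Ifi208 fell from 20, 27.9 and 29.1 CPM to 1.55, 6.48 and 5.23 CPM (-2.52 ± 0.49), and Samd9l, a restriction factor for translation of viral RNA, from 57.4, 79.5 and 69.3 CPM to 24.5, 24.2 and 20.7 CPM (-1.57 ± 0.31). Herc6 (-1.04 ± 0.38) and Ifit2 (-0.79 ± 0.30) also fell, each lost without 1 library. The leukocytes present changed as well: 6 neutrophil markers summed to 930 to 3332 CPM at rest and 5722 to 9171 CPM after injury, and 6 macrophage markers to 5295 to 11141 CPM and 4495 to 4937 CPM. Their part in these differences was not tested.

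In MuSCs 2 of 38 rose (21.4% of all genes) and 11 fell (17.4% of all genes), with a median of -0.43 (-0.04 over all genes). Bst2 rose from 14.6, 18.6 and 25.1 CPM to 49.7, 46.2 and 53.2 CPM (1.35 ± 0.18), and Ifitm3 from 274, 287 and 345 CPM to 548, 618 and 582 CPM (0.95 ± 0.13). Both genes were separate between the groups. Parp14 fell from 11.6, 18.6 and 20.8 CPM to 4.41, 5.57 and 5.57 CPM (-1.70 ± 0.29), Mx2 from 1.38, 7.93 and 4.79 CPM to 1.67, 0.491 and 0.663 CPM (-2.20 ± 0.55) and Samd9l by 1.73 on the log2 scale, the last lost without 1 library. For Mx2 the groups overlapped. Ifi35 (-0.61 ± 0.15), Lgals3bp (-0.52 ± 0.18) and Dtx3l (-0.70 ± 0.27) had the smallest falls, and those of Lgals3bp and Dtx3l were lost without 1 library. Fitted only with the MuSC groups, 7 genes fell.

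**Figure D4:**
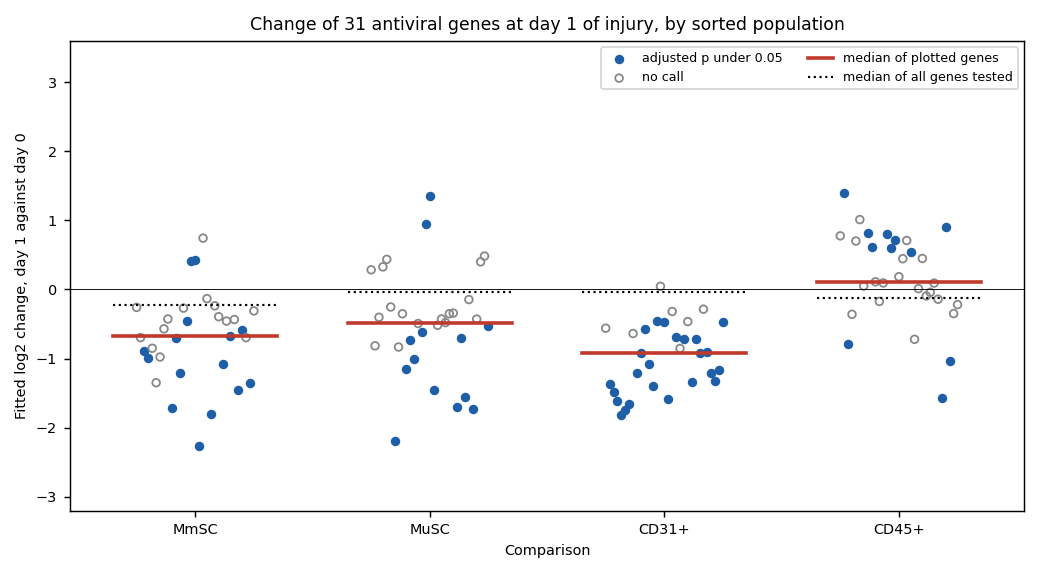
Fitted log2 differences between day 1 after cardiotoxin and rest (y axis) in MmSCs, MuSCs, CD31+ and CD45+ cells (x axis), 1 point per gene, filled where the adjusted p is under 0.05, for the 31 genes with at least 10 counts in every group. The red line is the median of the plotted genes and the dotted line that of all genes tested, and most CD31+ values lie below 0 while CD45+ values lie on both sides of it.

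The injury response of MmSCs was then tested against that of each other population. Against CD31+ cells it was higher for 2 genes (4.78% of all genes), Dhx58 (1.12 ± 0.35, lost without 1 library) and Bst2 (0.90 ± 0.23). Against CD45+ cells it was lower for 14 genes (11.5% of all genes), with a median of -0.99 (0.01 over all genes). These were led by Cmpk2 (-2.71 ± 0.39), Rsad2 (-2.36 ± 0.82) and Ifit1 (-2.10 ± 0.42). Without CD45+ day 1 replicate 2, 7 genes were lower. Against MuSCs it was lower for 2 genes (5.62% of all genes), Bst2 (-0.93 ± 0.24) and Sp100 (-1.84 ± 0.49), both lost without 1 library. Of the 12 JAK, STAT and IRF genes, 1 rose and 6 fell in MmSCs after injury (18.2% and 23.6% of all genes). Stat2 fell by 1.11 and Irf7 by 0.73. Socs3 rose in MmSCs by 1.83 and in CD31+ cells by 2.18.

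At rest the populations differed in the level of these genes. The 38 genes summed to 5776 ± 297 CPM in CD31+ cells, 3492 ± 127 CPM in CD45+ cells, 2440 ± 30.9 CPM in MmSCs and 708 ± 51.7 CPM in MuSCs (SD, n = 3 each), and no neighbours in this order overlapped between libraries. Resting MmSCs were lower than CD31+ cells for 32 of 38 genes and higher for 2 (23% and 24% of all genes), with a median of -1.77. Rsad2 was at 3.92, 8.68 and 2.26 CPM in MmSCs and at 405, 274 and 445 CPM in CD31+ cells (-6.25 ± 0.54), and Ifi44 at 0, 0.914 and 1.13 CPM against 86.9, 69.7 and 85.1 CPM (-6.95 ± 0.64). Zbp1 was higher in MmSCs (13, 12.8 and 6.33 CPM against 1.08, 3.73 and 4.49 CPM, 1.85 ± 0.50), as was Mx1 (4.78, 2.28 and 0 CPM against 0, 0.861 and 0.3 CPM, 2.72 ± 0.96), though Mx1 overlapped between the groups and lost its call without 1 library. Resting MmSCs were lower than CD45+ cells for 24 genes and higher for 2 (28.2% and 28.5% of all genes), with a median of -1.02. The OAS family was low as a whole: all 6 genes were lower, with Oas1g (-6.43 ± 0.89) and Oas3 (-5.55 ± 0.80) the lowest beside Ifi208 (-5.31 ± 0.62). Ifit2 (27.8, 25.1 and 33 CPM against 11.1, 17.3 and 14 CPM, 1.02 ± 0.28) and Lgals3bp (0.42 ± 0.16) were higher in MmSCs, both lost without 1 library. Compared with MuSCs, resting MmSCs were higher for 25 genes and lower for 1 (23.4% and 17.3% of all genes), with a median of 1.82. Sp100, a nuclear body protein, was at 86.3, 84.3 and 87.9 CPM in MmSCs and at 0.59, 1.38 and 0.599 CPM in MuSCs (6.75 ± 0.28), and Lgals3bp at 360, 387 and 366 CPM against 54.7, 31 and 45.7 CPM (3.07 ± 0.18). Trim25 was the gene that was lower in MmSCs (14.5, 20.6 and 21.7 CPM against 29.3, 27.9 and 31.3 CPM, -0.65 ± 0.21), lost without MuSC day 0 replicate 3.

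In the Il-6 reporter experiment, 32 of the 38 genes passed the filter. None of them was called between Thy1.1+ and Thy1.1- cells in the fit without a replicate block (0% of all genes lower), and DESeq2 called 0. At an unadjusted p under 0.05 edgeR counted 1 gene in that fit and 14 of 32 with the replicate number as a block. The share of all genes at that unadjusted p is not given here, so these counts do not show whether the list stood out. The fitted values were below 0 for 26 of 32 genes in either fit, with a median of -0.41 (-0.02 over all genes) without the block and -0.52 (-0.03 over all genes) with it. Replicate 3 was high in both arms: Oasl2 was at 12.3, 15.1 and 43.3 CPM in Thy1.1+ cells and at 24.6, 22.3 and 69.6 CPM in Thy1.1- cells, and Isg15 at 2.97, 1.38 and 8.88 CPM and at 3.97, 4.05 and 14.1 CPM. Same-numbered libraries deviated together, and with the block 4 genes were lower in Thy1.1+ cells, where 5.81% of all genes were. They were Oasl2 (-0.74 ± 0.18, edgeR adjusted p = 0.0191), Parp14 (-1.14 ± 0.29), Rtp4 (-0.95 ± 0.23) and Sp100 (-0.96 ± 0.21). Within each replicate number these 4 genes were lower in Thy1.1+ than in Thy1.1- cells. Ifitm3 stood at 1339, 1237 and 1513 CPM in Thy1.1+ cells and at 1126, 1189 and 1424 CPM in Thy1.1- cells.

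In whole muscle 7 days after injury, none of the 37 genes tested was called between anti-Cxcl5 and IgG (0% of all genes lower). At an unadjusted p under 0.05 edgeR counted 2 genes (share of all genes not given), and DESeq2 called 0. The fitted value was below 0 for 31 of 37, with a median of -0.33 (0.00 over all genes). Isg15 was at 9.91, 1.89 and 11.6 CPM with anti-Cxcl5 and at 14.5, 12.8 and 8.66 CPM with IgG, and Ifitm3 at 190, 63.3 and 173 CPM and at 213, 164 and 160 CPM. Anti-Cxcl5 replicate 2 was the lowest library for both genes, and without it no gene was called either. Ifi35 was lower in each anti-Cxcl5 library (21.3, 25 and 23.9 CPM) than in each IgG library (30.6, 31.4 and 32.2 CPM), yet it did not pass (-0.42 ± 0.16, edgeR adjusted p = 0.832). The summed leukocyte markers ran from 1832 to 2605 CPM with anti-Cxcl5 and from 1409 to 1828 CPM with IgG, and 6 myofibre markers from 110693 to 121461 CPM and from 120248 to 145051 CPM. Their part in these values was not tested.

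In MmSCs of DMDmdx mice, some of the antiviral genes rose with age and others fell. Between 2.5 and 7 weeks, 13 of 34 tested genes rose (21.9% of all genes) and 9 fell (22.7% of all genes), with a median of 0.16. The share that rose was above that of all genes, while the share that fell was near it. All 4 OAS family genes tested rose, among them Oas1a (0.589, 0.196 and 0.82 CPM at 2.5 weeks, 17.2, 12.7 and 9.88 CPM at 7 weeks, 4.59 ± 0.43) and Oas2 (0.785, 2.94 and 0.615 CPM, then 17.2, 22.6 and 20.7 CPM, 3.77 ± 0.42). Ifi44 rose by 4.61 ± 0.61 from 0.589, 0.196 and 0 CPM. Lgals3bp (24.3, 67.1 and 52.2 CPM, then 346, 351 and 393 CPM, 2.92 ± 0.25) and Bst2 (9.82, 10.6 and 9.43 CPM, then 56.5, 58 and 61.8 CPM, 2.56 ± 0.15) rose too. The smallest called rises included Ifitm3 (0.68 ± 0.12) and Isg15 (10.8, 10.2 and 10.4 CPM, then 19.9, 13.6 and 19.8 CPM, 0.76 ± 0.22), and that of Isg15 was lost without 7 week replicate 1.

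All 4 genes of the PARP group fell over the same interval. Dtx3l went from 59.9, 47.4 and 65.6 CPM to 15.2, 13.3 and 16.1 CPM (-1.96 ± 0.17), and Parp14 from 49.3, 48.3 and 60.6 CPM to 13.5, 16.8 and 21.6 CPM. Mx2 fell by 1.83 ± 0.27 and Cmpk2 from 19, 17.6 and 12.9 CPM to 4.68, 2.87 and 1.61 CPM (-2.39 ± 0.34). For Oas1a, Bst2, Lgals3bp, Dtx3l, Parp14 and Cmpk2 the groups did not overlap. Of the 12 JAK, STAT and IRF genes, 1 rose and 5 fell (21.9% and 22.7% of all genes). Irf7 rose by 1.01, while Irf1 fell by 3.29, Stat2 by 1.85 and Irf9 by 1.17. Endothelial markers summed to 377 to 411 CPM at 2.5 weeks and 49.8 to 57.5 CPM at 7 weeks. Tek gave most of that sum and fell by 3.20 on the log2 scale, and of the 3 endothelial markers tested, Pecam1 also fell (by 1.51) while Egfl7 rose by 2.34 (edgeR adjusted p = 0.0011). Macrophage markers summed to 21.5 to 31.8 CPM and 5.06 to 7.34 CPM. Among macrophage-expressed genes that were tested, Cd68 fell (log2 difference -2.38), while Csf1r (0.14) and Lyz2 (2.17) were not called. Satellite cell markers summed to 363 to 456 CPM and 1069 to 1229 CPM, mostly from Sdc4 and Vcam1, with Pax7 at 0 at 2.5 weeks and at most 0.46 CPM at 7 weeks. Their part in these differences was not tested.

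Between 7 and 12.5 weeks 2 genes fell (2.39% of all genes) and none was called upward. Bst2 fell to 32.2 and 28.4 CPM (-0.95 ± 0.16), and Zbp1 from 26.1, 22.2 and 26.4 CPM to 12.7 and 7.78 CPM (-1.25 ± 0.26). Ifi44 (-1.51 ± 0.52), Oas2 (-1.41 ± 0.40, edgeR adjusted p = 0.051) and Rsad2 (-1.36 ± 0.60) had larger differences that were not called, and both 12.5 week libraries of each lay below the 3 libraries at 7 weeks. The calls of Bst2 and Zbp1 were lost without 12.5 week replicate 2, and fitted with these age groups alone 6 genes fell. Against 2.5 weeks, 11 genes were higher at 12.5 weeks (13.9% of all genes) and 7 lower (12.4% of all genes). Oas1a (11 and 9.88 CPM, 4.24 ± 0.47), Ifi44 (3.09 ± 0.74) and Oas2 (5.29 and 10.2 CPM, 2.35 ± 0.50) were higher, and Cmpk2 (-2.78 ± 0.44), Mx2 (-1.50 ± 0.31) and Dtx3l (22.9 and 21.3 CPM, -1.38 ± 0.19) were lower. The oldest group had 2 libraries, and without its replicate 1 only 4 genes were higher. Ifi44 lost its call in that case and Oas2 without replicate 2.

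**Figure D5:**
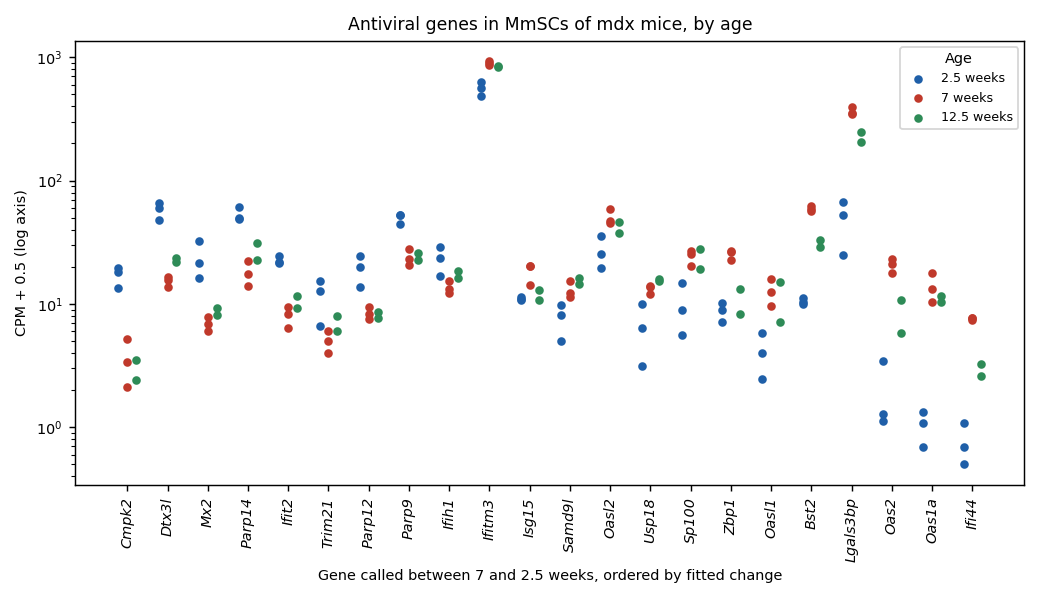
CPM + 0.5 (log axis) in MmSCs of DMDmdx mice at 2.5, 7 and 12.5 weeks (colours), 1 point per library, for the 22 genes called between 7 and 2.5 weeks, ordered along the x axis by fitted difference. Cmpk2, Dtx3l and Parp14 at the left are lower at 7 weeks than at 2.5 weeks, and Oas1a, Oas2, Bst2 and Lgals3bp at the right are higher.

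No antiviral gene passed the test between Il1b-KO and Il1b-WT MmSCs at day 1 after injury. The Il1b count itself was 0, 0 and 1 in Il1b-KO libraries and 2 and 5 in Il1b-WT libraries, too few to check the genotype in MmSCs. Of the 32 genes tested, none was called (0.0909% of all genes were lower). At an unadjusted p under 0.05 edgeR counted 4 genes (share of all genes not given), and DESeq2 called 0. The median was -0.09, against 0.00 over all genes. Isg15 was at 5.91, 9.01 and 7.35 CPM in Il1b-KO and at 7.53 and 5.09 CPM in Il1b-WT cells. Cmpk2 was at 2.67, 1.23 and 2.19 CPM against 6.59 and 4.2 CPM, separate between the groups, with a log2 difference of -1.38 ± 0.42 that did not pass (edgeR adjusted p = 0.2). With 1 library left out in turn, 0 to 2 genes were lower, the 2 without Il1b-WT replicate 1.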

How the data were processed

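Poly(A) RNA libraries were deposited by the authors as raw read counts per gene symbol. Per the submitters' processing notes, STAR 2.7.3a and featureCounts were used with mm10 (GRCm38). The sources used here do not give the annotation, filters or strand setting. Every column of the count table matched a labelled sample, and 0 columns were unused. Within each of the 6 experiments, genes were kept by filterByExpr (minimum count 10), scaled by TMM and fitted with edgeR 4.0.16 (R 4.3.3, quasi-likelihood F test) with 1 mean per group, and p-values were adjusted by Benjamini-Hochberg over all genes tested, which numbered 15965, 16374, 11975, 13346, 13160 and 12102. Calls were made where the adjusted p was under 0.05. CPM use TMM-scaled library sizes within an experiment and are not compared across experiments. A gene at 0 counts was set to a floor of 3 counts per library, which covers counting error only. SE is the log2 difference divided by the square root of F. The fits of some comparisons were also run on simulated counts, drawn with the spread fitted to these data. Those counts held no shifts shared by libraries, so they cannot show that the calls hold in the real libraries.

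Biological coefficients of variation ran from 12% (Il1b-KO) to 29.6% (reporter), and totals of 2252373 to 8408842 counts make genes under about 1 CPM imprecise. Replicates of 1 group differed by more than sampling noise in every pair compared (chi-square per degree of freedom at least 3.94), so none were merged. In the reporter experiment, same-numbered libraries deviated together (correlations 0.358, 0.392 and 0.618), so the values with a replicate block stand beside that result. The alternatives were DESeq2 size factors, DESeq2 1.42.0, no filter, a replicate block, only the groups compared, Il-17A libraries in place of PBS, and each library left out. The members and gene lists were chosen with earlier results of these data known. All 38 genes could be named, with values per library for the 3 largest and 3 smallest called differences and for genes against the majority or without a call. A few further genes were given values per library after their values were seen.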

Additional observations from a re-analysis of the deposited data

Results flagged for a closer look

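The injury response of MmSCs differed from that of another population by a direct test of the difference (edgeR, adjusted over all genes) for some of the antiviral genes. Against CD31+ cells the count was 2 of 38, a share near the 4.78% of all genes called in that direction, with Dhx58 at 1.12 and Bst2 at 0.90 on the log2 scale, both higher in MmSCs. Dhx58 fell little in MmSCs (21.8, 21 and 21.9 CPM at rest, 19.9, 16.6 and 17.1 CPM after injury) and more in CD31+ cells (33.7, 47.3 and 44.3 CPM, then 22.8, 14.8 and 9.85 CPM).

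Against CD45+ cells the count was 14 of 38 (11.5% of all genes), all with a lower response in MmSCs: Ifit1 -2.10, Ifit3b -1.55, Rsad2 -2.36, Oas1a -1.09, Oas2 -1.13, Oasl2 -1.04, Usp18 -1.83, Ifih1 -1.30, Dhx58 -1.08, Ifi35 -1.05, Cmpk2 -2.71, Parp14 -0.98, Rtp4 -1.48 and Sp100 -1.01. Neutrophil markers rose in the CD45+ libraries over the same interval, and their part was not tested. Of these 14 calls, 7 were lost without 1 library.

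Against MuSCs the count was 2 of 38, a share no higher than the 5.62% of all genes called in that direction, with Bst2 at -0.93 and Sp100 at -1.84, both lost without 1 library. Bst2 rose in both populations, and more in MuSCs. Sp100 fell in MmSCs (86.3, 84.3 and 87.9 CPM, then 32.2, 35.6 and 33.2 CPM) and stood at 0.59, 1.38 and 0.599 CPM, then 1.37, 1.47 and 0.53 CPM in MuSCs, where it was close to undetected.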

How the results depend on the processing

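No value of a named gene changed sign past the threshold under any alternative. With DESeq2 size factors, Osm with Il-1b against Osm gave 5 higher genes of the list and MmSCs after injury 1 higher. With no filter on low counts, Osm with Il-1b against Osm gave 5 higher and 2 lower, Osm with TNFa against Osm 2 higher, and the Osm and TNFa interaction 11 lower. The same setting gave 9 lower in MmSCs after injury, 1 higher in CD31+ cells, 2 lower in CD45+ cells, 1 lower for the injury response against CD31+ cells, 1 higher against CD45+ cells, 1 higher and 1 lower against MuSCs, 1 higher for resting MmSCs against CD45+ cells and 4 lower between 12.5 and 7 weeks. Over all genes it called 360 in the reporter comparison, 159 for anti-Cxcl5 and 594 for Il1b-KO, where edgeR with the filter called 0, 4 and 146. With DESeq2, Osm with Il-1b against Osm gave 6 higher, the Osm and TNFa interaction 1 higher, MmSCs after injury 1 higher and the response against CD45+ cells 1 higher. DESeq2 called 1220 genes for Il-17A (790 in edgeR), 177 for the reporter and 248 for Il1b-KO. Fitted with only the groups compared, TNFa lowered 0, Il-17A lowered 3 (1210 of all genes called), Osm with Il-1b against Osm gave 6 higher and 3 lower, Osm with TNFa against Osm 2 higher, CD45+ cells 2 lower, MuSCs 7 lower, the response against MuSCs 0 lower, resting MmSCs against CD31+ cells 1 higher and 12.5 against 7 weeks 6 lower (2027 of all genes, 777 with all ages). With the Il-17A libraries as the control instead of PBS, TNFa lowered 0 genes of the list and 993 of all genes were called, against 2361 with PBS. The cause was not tested.

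With the replicate block, the reporter comparison gave 4 lower and 1286 of all genes called. Outside the reporter experiment same-numbered libraries did not deviate together (correlations -0.0995 to 0.0868), so the numbers do not pair them. There the replicate block gave 3 lower for Osm with Il-1b against Osm, 1 higher for the injury response against CD45+ cells, 1 higher between 12.5 and 7 weeks, and 0 of all genes for anti-Cxcl5.

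With each library left out in turn, the counts of the list ranged as follows. TNFa raised 9 to 13 and lowered 0 to 1 (1182 to 1579 of all genes), and Il-17A raised 0 to 1 and lowered 0 to 1 (100 to 334 of all genes). The Osm and Il-1b interaction was higher for 0 to 1 (1666 to 2465 of all genes), and that of Osm and TNFa for 0 to 1, lower for 3 to 5 (421 to 671 of all genes). Osm against Il-1b called 1010 to 1515 of all genes. Against Osm, Osm with Il-1b lowered 0 to 1 (1209 to 1462 of all genes) and Osm with TNFa raised 2 to 3 (399 to 510 of all genes). The injury response was higher for 1 to 3 and lower for 0 to 1 against CD31+ cells, higher for 0 to 1 and lower for 7 to 13 against CD45+ cells, and higher for 0 to 1 and lower for 0 to 2 against MuSCs. Resting MmSCs were higher than CD31+ cells for 1 to 2, higher than CD45+ cells for 0 to 1 and lower than MuSCs for 0 to 1. After injury CD45+ cells fell for 2 to 4, MmSCs rose for 0 to 2 and fell for 6 to 15, and MuSCs fell for 7 to 12. The reporter called 0 to 2 and anti-Cxcl5 0 to 4 of all genes. At 12.5 against 2.5 weeks 4 to 12 rose (1684 to 4788 of all genes), against 7 weeks 0 to 2 fell (137 to 481 of all genes), and in Il1b-KO 0 to 2 fell (7 to 670 of all genes). The 4 h mix library has no replicate and could not be left out. Fewer libraries were fitted in each case. Genes near 1 CPM, such as Oas1g, Mx1 and Trim21, are limited by depth.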
